A study of Caenorhabditis elegans with 46 samples.

Results

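A set of 9 genes that build or mark the intestine of the nematode Caenorhabditis elegans was followed through fasting, namely act-5, ifb-2, ifc-2, erm-1, eps-8, elt-2, elt-7, ges-1 and pept-1. They were taken as the probe sets of the array whose only gene symbol is the member, and the brightest probe set stands for a gene that has several. All 9 of 9 were found among the 17118 genes measured, on 16 probe sets of the 22548 tested. Of these, 3 represent ifc-2, 4 eps-8, and 2 each erm-1 and elt-2, and the other 5 genes have 1 each. The probe sets that stand for act-5 (locus T25C8.2), ifb-2 (F10C1.7) and ges-1 (R12A1.4) are of a type that several transcripts can share. The other loci are M6.1 (ifc-2), C01G8.5 (erm-1), Y57G11C.24 (eps-8), C33D3.1 (elt-2), C18G1.2 (elt-7) and K04E7.2 (pept-1).

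The apical face of each intestinal cell carries a brush border of microvilli. Their core is the actin ACT-5, ERM-1 (ezrin, radixin, moesin) ties the membrane to the actin, and EPS-8 caps and bundles the filaments. Under the microvilli lies the endotube, a sheet of intermediate filaments made with IFB-2 and IFC-2. The GATA factor ELT-2 is the main transcription factor of the differentiated intestine and ELT-7 acts partly redundantly with it. The carboxylesterase GES-1 is a classical gut enzyme, and PEPT-1 takes up di- and tripeptides from the lumen.

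Expression was measured in total RNA of whole worms, on 46 Affymetrix arrays in 2 sets. The time course had 22 arrays of wild-type N2 worms, 2 per group, fed until day 2 of adulthood and then sampled fed at 0, 24 and 48 h or fasted for 3, 6, 9, 12, 18, 24, 36 and 48 h. The mutant set had 24 arrays, 3 per group, of day 4 adults of N2 and of kgb-1, jun-1 and daf-16 mutants in the N2 background, each fed and fasted. The labels give neither the alleles nor the fasting time of the mutant set. The kinase KGB-1 belongs to the JNK group, JUN-1 is the worm relative of the Jun component of AP-1, and insulin signalling acts through the forkhead factor DAF-16. By its title the study is about JNK and AP-1 in the lifespan effect of intermittent fasting. The questions taken up here are which of the 9 genes move when food is removed, when they move, and whether loss of these regulators alters that.

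Medians of deposited intensity per array spanned 60.13 to 83.97 (time course) and 60.19 to 85.38 (mutant set). Replicate arrays correlated at 0.986 to 0.994 and at 0.929 to 0.991, respectively. As a check of the labels, the brightest jun-1 probe set averaged 705 in fed N2 worms and 19.21 in fed jun-1 worms, a log2 change of -4.33 (limma adjusted p = 6.88e-11). A dimmer jun-1 probe set changed by -0.30 (0.838). The single kgb-1 probe set (173.7 on average with food in wild type, 186.7 in the mutant) cannot check its label, since the labels do not say what is deleted. The 4 daf-16 probe sets gave changes of -0.90 to -0.35 in fed daf-16 worms, and 1 of them passed the test. It was the dimmest, near the foot of the scale (33.38 in fed N2 and 19.64 in fed daf-16 worms, limma adjusted p = 0.0278). The brightest (559.4 and 413) changed by -0.43 (0.64). RNA of whole worms cannot tell fewer or smaller intestinal cells from less RNA per cell. All 9 members had group means above an intensity of 32 in every group, with the deposited scale starting just above 16.

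Changes below are log2 differences of normalized values with their standard error (SE). A change was called at an adjusted p under 0.05 (limma, Benjamini-Hochberg over all 22548 probe sets, two-sided). Fasted worms at 24 and 48 h were compared with their age-matched fed groups. The other fasting times were set against fed worms at 0 h, so age is not separated from fasting there, and these 6 comparisons share 1 pair of fed arrays. By the study's design text the time course came from 2 independent experiments and the mutant set from 3. It does not tie replicate numbers to experiments, but same-numbered arrays deviated together in both sets, so values from a second model, in which arrays are blocked by that number (the replicate block), stand beside each result whose call it changes.

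In the time course the members split. The brush border actin and the filament genes were lower after fasting, and the GATA factor elt-7 and the esterase ges-1 were higher. The transporter gene pept-1 was called lower in the middle of the course. The gene erm-1 passed the test at no time, and eps-8 did so at 24 and 36 h with the replicate block, on values as deposited or without 1 of the arrays. At 3 h, 0 members were called higher and 1 lower, against 0.443% and 0.674% of all probe sets. The counts were 1 and 1 at 6 h (background 1.1% and 1.1%), 2 and 1 at 9 h (6.4% and 3.25%, with 3 and 2 members under the block), and 2 and 2 at 12 h (9.96% and 6.17%). They were 2 and 3 at 18 h (17.8% and 18.8%), 2 and 4 at 24 h (16.5% and 15.7%), 3 and 3 at 36 h (19.8% and 20.5%), and 2 and 2 at 48 h (16% and 14.1%). From 18 h on, a large part of the array passed the test, so a call on a single member is common there. Median changes of the 9 members lay between -0.21 and -0.04 at all 8 times, against -0.04 to 0 over all probe sets, with members called in both directions from 6 h on.

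Without quantile scaling of the arrays the split of the calls moved to the higher side. At 18 and 36 h it went from more lower to more higher calls, so its direction there depends on the scaling. The calls at 9 h were then 1925 higher and 459 lower in place of 1443 and 733, at 12 h 3077 and 646 in place of 2246 and 1391, and at 18 h 5059 and 2826 in place of 4013 and 4234. At 36 h they were 5491 and 3334 in place of 4470 and 4612, and at 48 h 5027 and 2173 in place of 3617 and 3178. For N2 in the mutant set they were 1067 and 404 in place of 767 and 489. For fed jun-1 against fed N2 worms they leaned the other way, with 53 and 376 in place of 79 and 227.

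**Figure D1:**
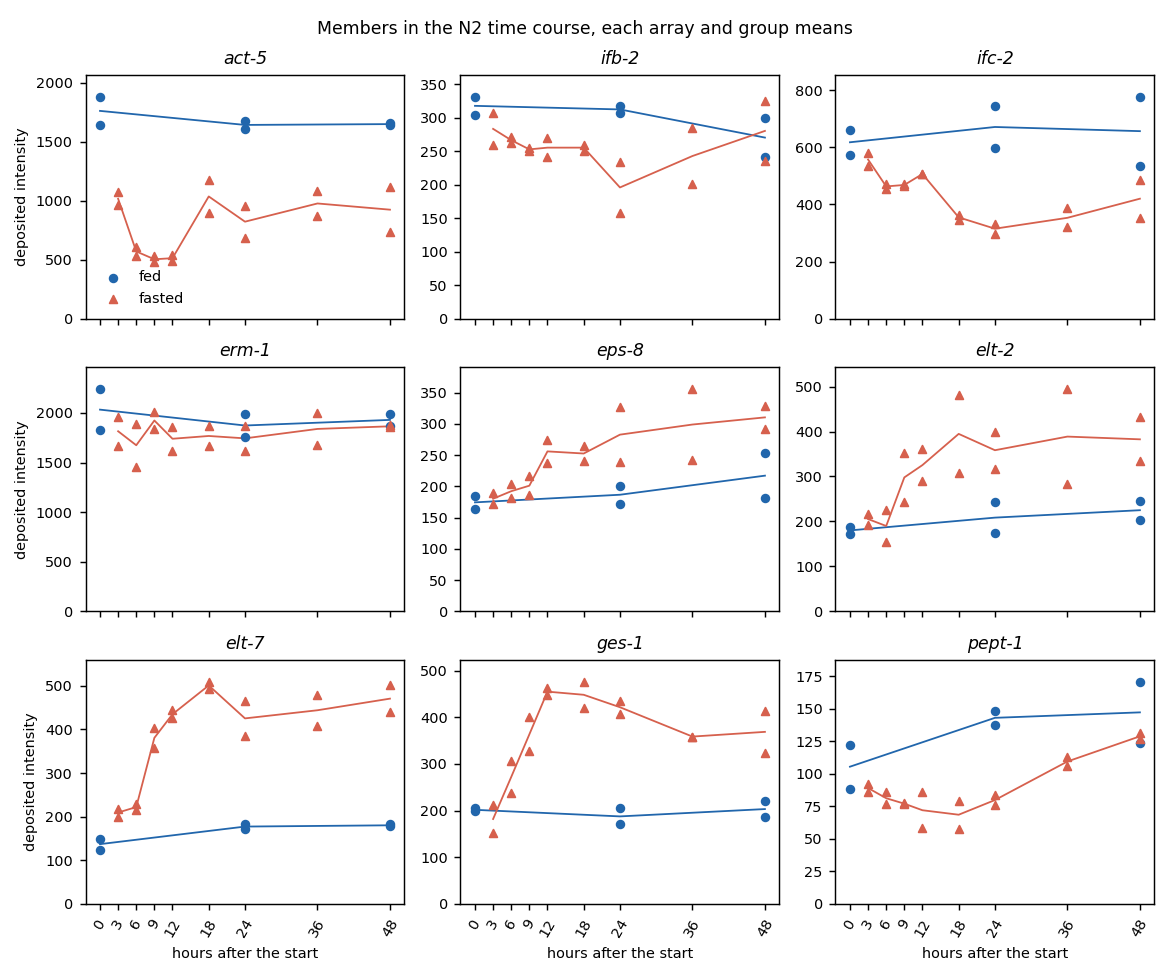
Deposited intensity of each member (vertical axis, linear from 0) against hours (horizontal axis) in N2 worms, with a point for each array, circles for fed and triangles for fasted worms, and lines through group means. The fasted arrays of act-5 lie below all fed arrays at every time and dip lowest at 6 to 12 h, those of elt-7 lie above all fed arrays at every time, and those of erm-1 overlap the fed arrays at most times.

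The actin gene act-5 fell early and steeply, and its fasted levels from 18 h on lay between those at 6 to 12 h and those of fed worms. Fed worms gave 1641 and 1881 (0 h), 1679 and 1605 (24 h), and 1643 and 1655 (48 h). Fasted worms gave 962 and 1070 (3 h), 609.5 and 530 (6 h), 477.9 and 528.6 (9 h), and 486.9 and 538.8 (12 h). All fasted arrays were below all fed arrays, and the 3 groups from 6 to 12 h were below every other fasted array. The log2 change was -0.85 ± 0.19 at 3 h (adjusted p = 0.0384), -1.60 ± 0.19 at 6 h (0.000124), -1.75 ± 0.19 at 9 h (1.87e-05) and -1.74 ± 0.19 at 12 h (1.37e-05). At 9 h this is a 3.37-fold lower level. The 3 h call was lost on values as deposited and when any 1 of its 4 arrays was left out (-0.97 to -0.72).

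Later fasted worms had intermediate act-5 levels, with 897.6 and 1174 (18 h), 957.2 and 686.7 (24 h), 873.7 and 1079 (36 h), and 734.5 and 1113 (48 h). Compared with age-matched fed worms the gene was lower by -0.92 ± 0.19 at 24 h (adjusted p = 0.0015) and by -0.85 ± 0.19 at 48 h (0.00267). The changes at 18 h and 36 h were -0.75 ± 0.19 (0.00505) and -0.80 ± 0.19 (0.00289). Without replicate 1 of the fasted worms, the 18 h call (-0.55) and the 48 h call (-0.55) were lost. The difference of act-5 between 18 and 12 h of fasting was 0.98 ± 0.19 (adjusted p = 0.014), a step chosen for testing after its values were seen, so it is a description. At that step 1 member was called higher, act-5, and 0 lower, where 3.39% and 1.7% of all probe sets were called, and ifc-2 was called lower as well with the replicate block (-0.57, 0.0094). The call of the step was lost in the fit of all 46 arrays (0.173), without either 12 h array, or without replicate 2 of the 18 h worms (0.79 to 1.18 over the 4 arrays left out). Over all probe sets that step gave 764 higher and 384 lower calls, and 896 and 187 on values as deposited. The differences of 2 other actin genes, act-3 and act-4, were 0.07 ± 0.13 and 0.16 ± 0.10 at 12 h, then -0.07 ± 0.13 and 0.12 ± 0.10 at 48 h. Over the 8 times, act-3 was not called and act-4 was called once, higher at 24 h (0.30 ± 0.10, adjusted p = 0.0387). The act-5 probe set is of a type that can match several transcripts of a gene family, so a share of its signal from another actin was not tested.

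In the time course, neither gene of the proteins that act on the actin core was called in the main fit, which has no replicate block. The linker gene erm-1 gave 1455 on its lowest array, 1864 as the median and 2237 on the highest in the time course. Its changes with fasting lay between -0.28 ± 0.14 (6 h) and -0.04 ± 0.14 (9 h), and the 48 h interval ran from -0.40 to 0.21. Its other probe set was not called either. The capping gene eps-8 gave 163.5 and 185.4 in fed worms at 0 h, 181.1 and 253.3 in fed worms at 48 h, and 292.2 and 328.8 after 48 h of fasting. Fasted and fed arrays of eps-8 did not overlap at 48 h, but the change of 0.35 ± 0.22 was not called (adjusted p = 0.273). At 24 and 36 h eps-8 was called higher with the replicate block (0.43, adjusted p = 0.03, and 0.45, 0.0197) and on values as deposited (0.55 and 0.71). Leaving out replicate 1 of the fasted worms also gave a call at both times (0.79 and 0.75). The 3 other eps-8 probe sets gave -0.30 to 0.20 at 48 h.

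The filament genes were first called lower at later times than act-5. For ifc-2, fed worms gave 573 and 662.1 (0 h), 597.2 and 744.9 (24 h), and 536 and 777 (48 h). Fasted worms gave 453.8 and 472.2 (6 h), 464.2 and 472 (9 h), and 505.7 and 507.3 (12 h). They then gave 363.4 and 346 (18 h), 297.4 and 332.6 (24 h), 319.6 and 386.6 (36 h), and 353.9 and 486.1 (48 h). From 6 h on, every fasted array was below every fed array on the deposited scale. Once scaled, 1 array at 12 h (log2 level 9.102) lay above the lowest fed array (9.07). The gene was called lower at 18 h (-0.81 ± 0.20, adjusted p = 0.00436), 24 h (-1.03 ± 0.20, 0.000928), 36 h (-0.79 ± 0.20, 0.00458) and 48 h (-0.63 ± 0.20, 0.0258). Without replicate 1 of the fasted worms the 36 h call was lost, and so was the 48 h call, which was also lost without replicate 2 of the fed worms (-0.89 to -0.36 over the 4 arrays left out). The 2 dimmer ifc-2 probe sets were called lower from 9 h on, by -0.75 ± 0.11 and -0.66 ± 0.18 at 9 h and by -0.58 ± 0.11 and -0.95 ± 0.18 at 48 h. The first called decline of the gene thus differed between its probe sets.

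For ifb-2, fed worms gave 331.1 and 303.9 (0 h), 317 and 307.3 (24 h), and 241.1 and 299.2 (48 h). Fasted worms gave 233.2 and 158.3 (24 h), 201.5 and 283.8 (36 h), and 235 and 325.2 (48 h). The groups were apart at 24 h and overlapped again at 48 h. The gene was called lower at 24 h (-0.79 ± 0.19, adjusted p = 0.00424) and 36 h (-0.55 ± 0.19, 0.0277), and at 48 h its change was -0.11 ± 0.19 (0.724). With the replicate block it was called at 18 h as well (-0.48, 0.024). The 24 h call was lost without replicate 2 of the fasted worms (-0.62). The 36 h call was lost on values as deposited, without either fed array, and without replicate 1 of the fasted worms (-0.81 to -0.30 over the 4 arrays left out).

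Of the GATA factors, elt-7 rose early and stayed high. Fed worms gave 124.5 and 149.8 (0 h), 184.1 and 170.7 (24 h), and 182.9 and 177.7 (48 h). Fasted worms gave 200.4 and 218.7 (3 h), 214.6 and 229.6 (6 h), 357.6 and 403.9 (9 h), 425.6 and 444 (12 h), and 508.5 and 493 (18 h). They then gave 465.7 and 384.8 (24 h), 479.7 and 408.1 (36 h), and 501.4 and 439.6 (48 h). Every fasted array was above every fed array, and no array from 9 h on overlapped the 3 h and 6 h arrays. The change was 0.45 ± 0.13 at 3 h (adjusted p = 0.185), 0.55 ± 0.13 at 6 h (0.0394), 1.20 ± 0.13 at 9 h (2.36e-05), 1.35 ± 0.13 at 12 h (5e-06) and 1.53 ± 0.13 at 18 h (5.6e-07), where the level was 2.9-fold higher. It was 1.13 ± 0.13 at 24 h (1.54e-05), 1.4 ± 0.13 at 36 h (8.31e-07) and 1.22 ± 0.13 at 48 h (6.42e-06). The 6 h call was lost with an offset of 50 and when any 1 of its 4 arrays was left out (0.45 to 0.64), while the calls from 9 h on held in each such fit. Its pooled SD within time course groups was 0.106 on the log2 scale.

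The other GATA gene, elt-2, was higher in the same direction but its arrays varied more, with a pooled SD of 0.348. Fed worms gave 172.6 and 187.5 (0 h), 173.7 and 243.3 (24 h), and 203.8 and 246.2 (48 h). Fasted worms gave 243.2 and 352.7 (9 h), 307.2 and 482.4 (18 h), 317 and 399.9 (24 h), 283.8 and 493.8 (36 h), and 333.6 and 431.8 (48 h). Replicate 2 was the higher array of the pair in each of these groups, and from 12 h on every fasted array was above every fed array. At 9 h the lower fasted array lay among the fed arrays at 24 and 48 h, though above both at 0 h. Without a block the test passed at 36 h (0.79 ± 0.30, adjusted p = 0.0499), while the changes at 18, 24 and 48 h were 0.80 ± 0.30 (0.0503), 0.66 ± 0.30 (0.11) and 0.62 ± 0.30 (0.144). With the replicate block elt-2 was called higher at 9 h (0.50, 0.0288), 12 h (0.60, 0.00647), 18 h (0.00026), 24 h (0.00168), 36 h (0.000266) and 48 h (0.00299). Without the block the 36 h call was lost without either fed array and without replicate 2 of the fasted worms (0.36 to 1.22 over the 4 arrays left out). On values as deposited elt-2 was also called at 18 h (1.03) and 24 h (0.75). The dimmer elt-2 probe set gave 0.15 ± 0.13 at 36 h and 0.34 ± 0.13 at 48 h and was not called.

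The esterase gene ges-1 rose from 9 h on. Fed worms gave 205 and 198.4 (0 h), 170.6 and 204.6 (24 h), and 221 and 185.6 (48 h). Fasted worms gave 212.1 and 151.9 (3 h), 237 and 307.1 (6 h), 326.8 and 399.7 (9 h), 462.2 and 447.4 (12 h), and 420.8 and 475.3 (18 h). They gave 407.8 and 435 (24 h), 358.5 and 358.6 (36 h), and 323 and 414.3 (48 h). The 3 h arrays overlapped the fed arrays, and all arrays from 6 h on lay above every fed array. The gene was called higher at 9 h (0.68 ± 0.18, adjusted p = 0.0241), 12 h (0.96 ± 0.18, 0.00172), 18 h (0.92 ± 0.18, 0.000803), 24 h (1.04 ± 0.18, 0.000375), 36 h (0.61 ± 0.18, 0.0127) and 48 h (0.69 ± 0.18, 0.00768).

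The calls of ges-1 at 12, 18 and 24 h held whichever array was left out. The 9 h call was lost without either fed array and without replicate 2 of the fasted worms (0.56 to 0.79). At 36 h it was lost without any 1 of the 4 arrays (0.60 to 0.62), and at 48 h without replicate 2 of either group (0.49 to 0.91).

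The peptide transporter gene pept-1 was called lower in the middle of the course. Fed worms gave 122.5 and 88.58 (0 h), 137.8 and 148.4 (24 h), and 124 and 170.6 (48 h). Fasted worms gave 77.38 and 76.85 (9 h), 86.02 and 58.12 (12 h), 79.48 and 57.76 (18 h), 83.71 and 76.09 (24 h), 106.4 and 112.7 (36 h), and 126.6 and 131.2 (48 h). Earlier fasted arrays ran from 86 to 92.28 at 3 h and from 76.88 to 85.73 at 6 h. The arrays from 6 to 24 h lay below all fed arrays, and those at 36 and 48 h lay among them on the deposited scale, though below the fed arrays they were tested against once scaled. It was called lower at 12 h (-0.71 ± 0.18, adjusted p = 0.0117), 18 h (-0.81 ± 0.18, 0.00177) and 24 h (-0.97 ± 0.18, 0.000575), and not at 36 h (-0.29 ± 0.18, 0.211) or 48 h (-0.45 ± 0.18, 0.0674). With the replicate block it was also called lower at 9 h (-0.55, 0.0209) and 48 h (0.0313). The 12 h call was lost on values as deposited, without replicate 1 of the fed worms, and without replicate 2 of the fasted worms (-0.95 to -0.48 over the 4 arrays left out).

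Among fed worms no member was called between 0 h and 24 h (0.457% of all probe sets were) or between 0 h and 48 h (1.78%), and none had an unadjusted p under 0.05. The age changes of pept-1 and elt-7 were 0.36 ± 0.18 and 0.28 ± 0.13 at 24 h, and all others lay between -0.25 and 0.31 at both times. A dim ifc-2 probe set was the exception, with -0.47 ± 0.11 between 0 and 48 h (adjusted p = 0.0314).

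**Figure D2:**
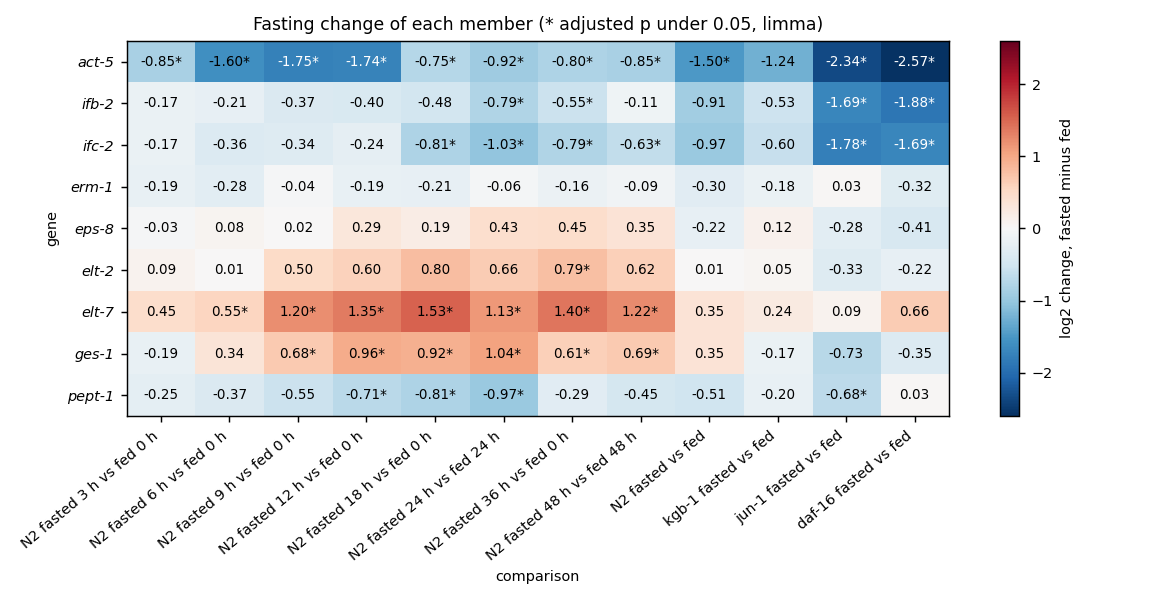
Log2 change of each member (rows) in the 8 time course and 4 mutant set comparisons of fasted with fed worms (columns), as colour and number, with a star where the adjusted p was under 0.05. The row of act-5 is negative in every column, elt-7 and ges-1 carry stars in the time course and none in the mutant set, and erm-1 and eps-8 carry no star.

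In the mutant set act-5 was again the member with the largest called change. In N2 worms, 0 members were called higher and 1 lower (3.4% and 2.17% of all probe sets), and in kgb-1 worms 0 and 0 (0.213% and 0.789%). The jun-1 worms had 0 higher and 4 lower members (0.82% and 2.13%), the daf-16 worms 0 higher and 3 lower (2.25% and 2.43%). With the replicate number as a block, N2 had 0 higher and 3 lower members, kgb-1 had 0 higher and 1 lower, jun-1 had 0 higher and 4 lower, and daf-16 had 1 higher and 3 lower. Of the 22548 probe sets, the block called 1671 higher and 1046 lower in N2 and 123 and 321 in kgb-1 worms. It called 669 and 952 in jun-1 and 1107 and 973 in daf-16 worms. The unadjusted p was under 0.05 for 1 member in kgb-1 worms, act-5, and the share of all probe sets at that limit is not given. The median change of the members was -0.30 in N2, -0.18 in kgb-1, -0.68 in jun-1 and -0.35 in daf-16 worms, against -0.01 to 0.04 over all probe sets.

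For act-5, N2 worms gave 1381, 1983 and 1886 fed and 554.2, 490.2 and 948 fasted. The jun-1 worms gave 1555, 1681 and 1802 fed and 464.5, 231.8 and 299.7 fasted, and the daf-16 worms 1437, 1859 and 1343 fed and 351.5, 274.8 and 150.3 fasted. In these genotypes every fasted array lay below every fed array. The changes were -1.50 ± 0.32 in N2 (adjusted p = 0.00506), -2.34 ± 0.32 in jun-1 (6.32e-05) and -2.57 ± 0.32 in daf-16 worms (1.46e-05), where the fasted level was 5.94-fold lower. All 3 calls held whichever array was left out.

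The kgb-1 worms were already low in act-5 when fed. They gave 380.5, 861.1 and 623.6 for act-5 when fed, all below the fed arrays of N2, jun-1 and daf-16. When fasted they gave 265.8, 215.8 and 239.8, below all of their own fed arrays. Fed kgb-1 worms had 3.14-fold less act-5 signal than fed N2 worms (-1.65 ± 0.32, adjusted p = 0.0052). That call was lost without replicate 1 of the fed kgb-1 worms (-1.29). In this comparison 0 members were called higher and 1 lower, where 0.443% and 1.46% of all probe sets were, and with the replicate block pept-1 was called higher as well. The block called 488 higher and 854 lower of the 22548 probe sets there. The mean log2 levels of ifb-2 (7.93 against 8.74 in fed N2 worms) and ifc-2 (9 against 9.78) were lower too, without a call. A dimmer ifc-2 probe set was called lower (-0.67 ± 0.17, adjusted p = 0.0482), and another was not (-0.99 ± 0.33, 0.169). Fasting changed act-5 in kgb-1 worms by -1.24 ± 0.32 (adjusted p = 0.0757, and 0.0355 with the replicate block). Body wall muscle genes were also lower in fed kgb-1 worms, with a median of -0.77 over 10 genes, of which 0 were called and 3 were with the replicate block, and the part of muscle in the result was not tested.

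**Figure D3:**
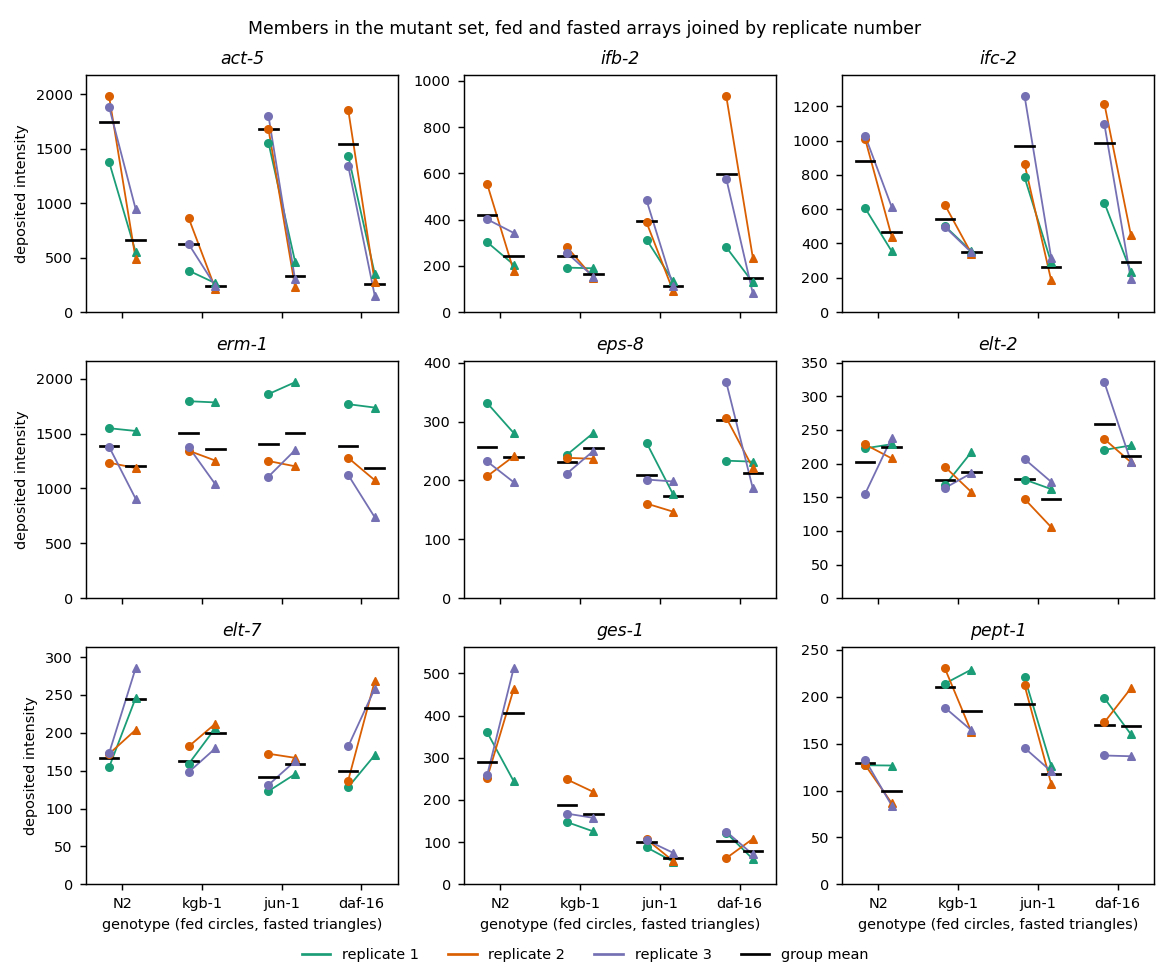
Deposited intensity of each member (vertical axis, linear from 0) in fed (circles) and fasted (triangles) worms of 4 genotypes, with lines joining arrays of the same replicate number and black bars for group means. Lines of act-5, ifb-2 and ifc-2 go down in every pair, the fed kgb-1 worms start low for act-5, and the group means of ges-1 are highest in N2 worms.

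Both filament genes were lower in fasted jun-1 and daf-16 worms. For ifb-2, jun-1 worms gave 313.5, 387.8 and 483.7 fed and 133.7, 91.67 and 113.4 fasted, and daf-16 worms gave 280.5, 933.8 and 577.3 fed and 128.3, 235.5 and 80.67 fasted. The changes were -1.69 ± 0.39 (adjusted p = 0.0153) and -1.88 ± 0.39 (0.00466), with no overlap between fed and fasted arrays in either genotype. The jun-1 call of ifb-2 was lost without replicate 3 of the fed or replicate 2 of the fasted worms (-1.88 to -1.42). N2 worms gave 302.7, 554.9 and 401.4 fed and 205.1, 179 and 342.5 fasted, which overlap, and the change of -0.91 ± 0.39 was not called (0.234). In kgb-1 worms the change of ifb-2 was -0.53 ± 0.39 (1).

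For ifc-2, jun-1 worms gave 785.2, 862.3 and 1259 fed and 289.6, 185.2 and 317.1 fasted, and daf-16 worms gave 637.8, 1216 and 1098 fed and 236.1, 449.6 and 190.1 fasted. The fed and fasted arrays were apart in both, with changes of -1.78 ± 0.34 (adjusted p = 0.0033) and -1.69 ± 0.34 (0.00372). N2 worms gave 605.6, 1009 and 1027 fed and 354.5, 440.1 and 612.4 fasted, a change of -0.97 ± 0.34 (0.118, and 0.0198 with the replicate block). The 2 dimmer ifc-2 probe sets were called lower in N2 without a block, by -1 ± 0.17 (0.000816) and -1.29 ± 0.33 (0.0205). In kgb-1 worms the brightest probe set changed by -0.60 ± 0.34 (1).

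Body wall muscle genes moved the same way as the filament genes and act-5 in this set. The median change of 10 muscle genes was -0.60 in N2, -0.33 in kgb-1, -0.98 in jun-1 and -1.24 in daf-16 worms, with 0, 0, 0 and 1 of 10 called lower. Of all probe sets 2.17%, 0.789%, 2.13% and 2.43% were called lower. Their summed intensity ran from 6477 to 12350 in fed and 3711 to 7467 in fasted N2 worms, from 6201 to 9262 and 2629 to 3392 in jun-1 worms, and from 6034 to 22070 and 2053 to 9706 in daf-16 worms. None of the 10 had a group mean below 32. At 24 h of the time course, where act-5, ifb-2 and ifc-2 were lower, the muscle median was 0.11. The mean log2 level of the muscle genes was then 8.27 in fed and 8.47 in fasted worms. At other times it was lower in fasted worms, with 8.3 at 18 h and 8.16 at 36 h against 8.65 in fed worms at 0 h. At 48 h it was 8.17 in fed and 8.06 in fasted worms. The part of muscle in the mutant set results was not tested.

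The other members moved less in the mutant set. For elt-7, N2 worms gave 154.3, 172.1 and 172.9 fed and 245.8, 203.9 and 285.2 fasted, with all fasted arrays higher, and the change of 0.35 ± 0.20 was not called (adjusted p = 0.43). In daf-16 worms it was 0.66 ± 0.20 (0.0729, and 0.0106 with the replicate block), and in jun-1 and kgb-1 worms 0.09 ± 0.20 and 0.24 ± 0.20. The changes of elt-2 lay between -0.33 ± 0.22 in jun-1 and 0.05 ± 0.22 in kgb-1 worms, and those of erm-1 between -0.32 ± 0.27 and 0.03 ± 0.27. In the erm-1 arrays, replicate 1 was the highest of its group in all 8 groups. The changes of eps-8 lay between -0.41 ± 0.20 in daf-16 and 0.12 ± 0.20 in kgb-1 worms, and a dimmer eps-8 probe set was called lower in jun-1 worms (-0.65 ± 0.16, 0.0272).

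The gut enzyme gene ges-1 had its highest group means in N2 worms. N2 worms gave 360.6, 251.8 and 258.2 fed and 244.5, 462.5 and 512 fasted, kgb-1 worms 147.6, 248.7 and 167.6 fed and 125.3, 219 and 157.5 fasted. The jun-1 worms gave 87.69, 106.7 and 104.7 fed and 53.75, 55.17 and 74.64 fasted, and the daf-16 worms 121.9, 61.9 and 124.9 fed and 59.99, 107.7 and 70.67 fasted. All fed mutant arrays were below all fed N2 arrays. Against fed N2 worms the differences were -1.19 ± 0.31 in jun-1 (adjusted p = 0.0674), -1.36 ± 0.31 in daf-16 (0.0604) and -0.63 ± 0.31 in kgb-1 worms (0.486). With the replicate block the first 2 were called (0.02 and 0.0173). The fasting change was 0.35 ± 0.31 in N2, where 2 of 3 pairs went up, and -0.73 ± 0.31 in jun-1 worms (0.316), where fed and fasted arrays did not overlap.

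For pept-1, fed N2 worms gave 127, 127.3 and 132.7 and fasted ones 126.7, 86.49 and 84.05. The fasted N2 arrays were all below the fed ones, by -0.51 ± 0.17 (adjusted p = 0.103, and 0.0349 with the replicate block). The jun-1 worms gave 220.7, 212.2 and 145.5 fed and 126.5, 107.5 and 120.5 fasted, a called change of -0.68 ± 0.17 (0.0317) that was lost on values as deposited and without any 1 of the 6 arrays (-0.74 to -0.62). Fed mutant worms had more pept-1 signal than fed N2 worms in each of the 9 mutant arrays. The differences were 0.68 ± 0.17 in jun-1 (0.0569, and 0.0157 with the block), 0.58 ± 0.17 in kgb-1 (0.108, and 0.028 with the block) and 0.36 ± 0.17 in daf-16 worms (0.859).

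In fed jun-1 and fed daf-16 worms no member was called against fed N2 worms, where 1.36% and 0.435% of all probe sets were called. At an unadjusted p under 0.05 there were 1 higher and 1 lower member in each, pept-1 and ges-1, a description since the share of all probe sets at that limit is not given. With the replicate block jun-1 worms had 1 higher and 1 lower member and daf-16 worms 1 lower. Of the 22548 probe sets, the block called 173 higher and 462 lower in fed jun-1 worms, and 16 and 173 in fed daf-16 worms.

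The test of whether a mutant's fasting change differed from that of N2 called no member, where it called 0.031% of all probe sets for kgb-1, 0.177% for jun-1 and 0.111% for daf-16. The replicate block called none either. At an unadjusted p under 0.05, none passed for kgb-1, 1 (ges-1) for jun-1 and 2 (act-5 and pept-1) for daf-16. The share of all probe sets under that unadjusted limit is not given, so these counts are a description. For act-5 the difference of changes was 0.27 in kgb-1 (95% interval -0.66 to 1.19), -0.84 in jun-1 (-1.77 to 0.09) and -1.07 in daf-16 worms (-2 to -0.14, adjusted p = 1). For ifb-2 it was -0.78 (-1.93 to 0.37) in jun-1 and -0.97 (-2.12 to 0.18) in daf-16 worms, and for ifc-2 -0.80 (-1.82 to 0.21) and -0.72 (-1.73 to 0.29). For ges-1 in jun-1 worms it was -1.08 (-2.01 to -0.16, adjusted p = 0.943). The filament genes' changes in jun-1 and daf-16 worms are thus not shown to differ from those in N2 worms. These 3 tests share the N2 arrays.

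The wider lists of genes around the members were read by counts, with members included where they belong. Of 9 genes of the intestinal filament sheet, 3 were called higher and 1 lower at 48 h (16% and 14.1% of all probe sets were), with a median of 0.14 against -0.02 over all probe sets. At 18 h the counts were 2 and 3 (17.8% and 18.8%) and at 36 h 2 and 4 (19.8% and 20.5%). The 3 were ifo-1, an organizer of intestinal filaments (0.91 ± 0.16, adjusted p = 0.000416), ifd-2, a filament protein (0.55 ± 0.17, 0.0217), and sma-5, a kinase that acts on filament structure (0.57 ± 0.18, 0.0248), while the 1 lower gene was ifc-2. In N2 of the mutant set 1 was higher, the dim filament gene ifc-1 (0.53 ± 0.12, 0.0077, from a mean of 25.29 to 45.62), and 0 lower (3.4% and 2.17% of all probe sets). In the time course ifc-1 went the other way, called lower at 6 h (-0.82), 9 h (-0.92), 12 h (-0.73), 18 h (-0.88) and 36 h (-0.89) against fed worms at 0 h. Fed worms were also lower in ifc-1 at 24 h (-0.80) and 48 h (-0.77) than at 0 h, and against age-matched fed worms its changes were -0.15 and -0.04. In daf-16 worms 3 of the 9 were lower, ifb-2, ifc-2 and ifd-1, where 2.43% of all probe sets were. Genes of this filament sheet list were thus called in both directions in the time course. Among those called higher at 48 h, ifd-2 was the 1 gene of a filament protein.

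Of 6 measured genes of the apical cytoskeleton, 0 were higher and 2 lower at 48 h (16% and 14.1% of all probe sets), act-5 and the villin-like gene viln-1 (-0.79 ± 0.16, adjusted p = 0.0014). In N2 of the mutant set viln-1 changed by -0.11 ± 0.21 (0.885). Of 12 polarity and junction genes, which place the apical surface, 5 were higher and 0 lower at 48 h, beside the same 16% and 14.1%. They include dlg-1, a junction scaffold (1.61 ± 0.30, 0.000611), the GTPase gene cdc-42 (0.55 ± 0.13, 0.00431) and crb-1, a Crumbs homologue (0.65 ± 0.17, 0.00746). In N2 of the mutant set dlg-1 was the 1 of 12 called (1.15 ± 0.31, 0.0327), where 3.4% of all probe sets were called higher and 2.17% lower. Of 6 measured endoderm factors, elt-7 was the 1 called at 48 h, a count near the 16% of all probe sets called higher. The earlier-acting end-1, end-3, med-1 and skn-1 changed by -0.11 to 0.22.

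Of 16 measured genes of lumen transport and digestion, 2 were higher and 5 lower at 48 h, with a median of -0.08, where 16% and 14.1% of all probe sets were called, so the higher count is near the background. The oligopeptide transporter relative pept-3 rose by 1.35 ± 0.18 (adjusted p = 4.93e-05), while pept-1 did not pass the test. Lower genes include the pump gene pgp-3 (-0.97 ± 0.14, 6.66e-05), the metallothionein gene mtl-2 (-1.11 ± 0.24, 0.00188) and the aspartic protease gene asp-1 (-0.48 ± 0.11, 0.00303). In N2 of the mutant set 0 were higher and 3 lower (3.4% and 2.17% of all probe sets). The 3 were asp-1 (-1.91 ± 0.30, 0.000318), the pump gene pgp-1 (-1.86 ± 0.41, 0.00697) and the phosphatase gene pho-1 (-0.46 ± 0.12, 0.0208). Summed intensity of this list ran from 17460 to 19700 in fed and 12150 to 12840 in fasted worms at 48 h, with no gene below 32.

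**Figure D4:**
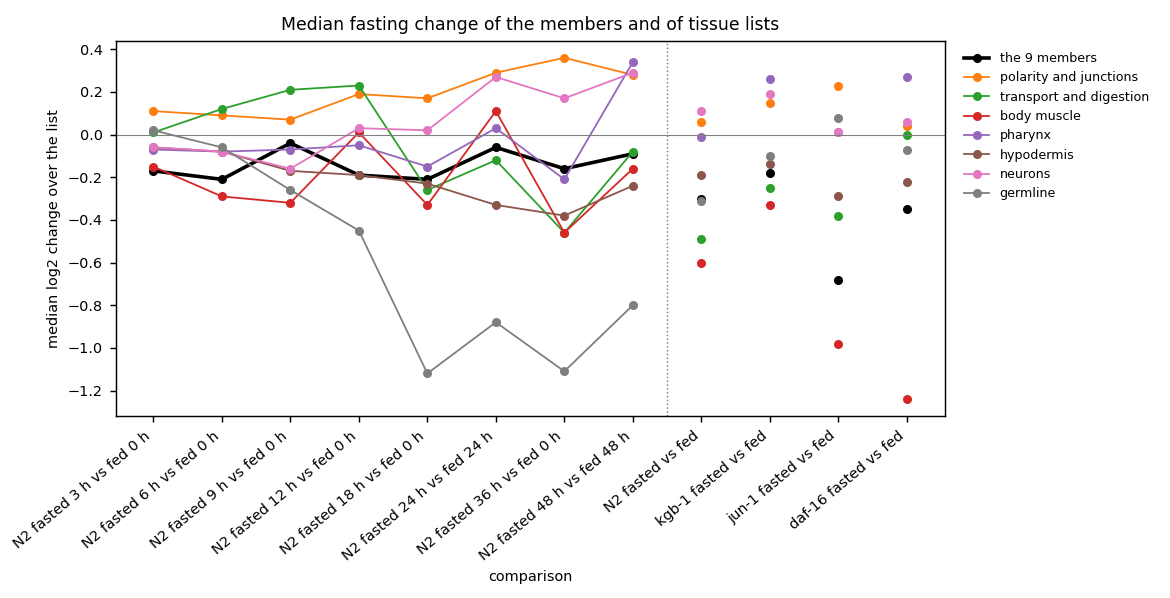
Median log2 change (vertical axis) of the 9 members, 2 intestinal lists and 5 lists of other tissues in each comparison of fasted with fed worms (horizontal axis), with lines for the time course and points for the mutant set. The germline median is the lowest of the time course from 12 h on, reaching -1.12 at 18 h, and the body muscle median is the lowest of the mutant set.

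Germline genes were lower beside the members in the time course. Of 15 germline genes, 13 were called lower at 18 h (median -1.12, with 18.8% of all probe sets lower) and 9 at 48 h (median -0.80, with 14.1% lower), and summed intensity at 48 h ran from 28750 to 31390 fed and 17190 to 19080 fasted. In the mutant set the germline medians were -0.31 in N2, -0.10 in kgb-1, 0.08 in jun-1 and -0.07 in daf-16 worms, with 0 of 15 called in each. At 48 h, 3 of 7 pharynx genes were higher and 1 lower, 2 of 10 hypodermis genes higher and 4 lower, 1 of 12 neuron genes higher and 0 lower, and 2 of 10 body muscle genes higher and 2 lower. With 16% of all probe sets higher and 14.1% lower at 48 h, the neuron and muscle counts are near the background. Values are relative to all RNA of the worm, and the part of other tissues in the members' changes was not tested.

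Members resembled each other in pairs, as a description over arrays that share groups. Over the 22 time course arrays, elt-7 and ges-1 correlated at 0.87, ifb-2 and ifc-2 at 0.79, elt-2 and eps-8 at 0.83, and ges-1 and pept-1 at -0.80. Over the 24 arrays of the mutant set, ifb-2 and ifc-2 correlated at 0.96 and act-5 with them at 0.88 and 0.90, while elt-7 and ges-1 correlated at 0.19. Within the mutant set groups the filament pair still correlated at 0.87.

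Outside the list, the genes most like each member over the time course, among 8519 brighter genes, gave these Pearson correlations (normalized log2 values, 22 arrays, then 24 of the mutant set). For act-5 they were F46F2.3 (0.907 and 0.915) and F42A8.1 (0.897 and 0.896), which stayed close in both sets. For ges-1 they were sek-4 (0.952 and 0.847) and M04D5.3 (0.947 and 0.636), and for elt-7 K07E3.4 (0.979 and 0.702) and C35C5.9 (0.979 and 0.807). The ifc-2 pair was C15H9.9 (0.923 and 0.625) and D1054.8 (0.916 and 0.778). For ifb-2 they were Y54F10AR.1 (0.838 and -0.058) and irg-8 (0.823 and 0.878), and for elt-2 ptr-23 (0.947 and -0.01) and lbp-3 (0.947 and 0.555). For eps-8 they were F49E2.5 (0.90 and 0.255) and hgap-2 (0.892 and 0.05), for pept-1 T05E12.6 (0.935 and -0.663) and papl-1 (0.917 and 0.05), and for erm-1 T07A9.14 (0.737 and -0.447) and hda-1 (0.73 and 0.316). Of these 18 genes, Y54F10AR.1, ptr-23, T05E12.6 and T07A9.14 correlated below 0 with their member in the mutant set.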

How the data were processed

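Deposited values were linear intensity, for which the submitters' processing notes name PLIER and give neither version nor normalization; the authors' earlier steps are not given in the sources used here. The smallest was 16.0003. Of 22625 probe sets, 77 controls were left out. Platform annotation gave 20766 of the rest 1 symbol, 887 several and 895 none. Values were taken as log2(intensity + 16). Array medians differed by 0.393 and 0.412 (log2), above a limit of 0.2, so quantile normalization was applied to each set on its own. The models were fitted per set in limma 3.58.1 (R 4.3.3) by lmFit and eBayes with intensity trend, 1 coefficient per group. The fit was tested on simulated data. Same-numbered arrays of the mutant set deviated together (correlations of 0.16 to 0.74, and 24 of 24 arrays were closest to an array of the same number), and so did those of the time course (0.29 to 0.62, and 22 of 22), while the design text names 3 and 2 independent experiments. The fit without the block is the main one in both sets. Members, lists and tests were chosen with earlier results of these data known. All 9 members are named. Of each list, up to 3 higher and 3 lower genes by adjusted p are named at 48 h and in N2 of the mutant set, with any called filament or cytoskeleton gene beside its count named after its value was seen. For each member the 2 most correlated genes are given. Alternatives were no quantile scaling, offsets of 0, 1 and 50, no intensity trend, the brighter probe sets, other probe sets of a gene, the replicate block, all 46 arrays in 1 fit and each array left out. A promoter motif search was not run, and no sequences are shown. The number of arrays limits the precision, and a mean is given with its arrays.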

Additional observations from a re-analysis of the deposited data

Results flagged for a closer look

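A pair of members lay on opposite sides in all arrays of a time course group and of a mutant. The share of all probe sets that do so is not given, so this is a description. The esterase gene ges-1 was higher in every fasted N2 array at 48 h (0.69) and lower in every fasted jun-1 array (-0.73). The capping gene eps-8 was higher in every fasted N2 array at 48 h (0.35) and lower in every fasted daf-16 array (-0.41). The lowest fed daf-16 array gave 233.6 and the highest fasted one 232. In N2 of the mutant set the mean log2 level of eps-8 was also lower when fasted, with 8.05 fed and 7.83 fasted. In jun-1 worms it was 7.95 and 7.67, and in kgb-1 worms 7.86 and 7.98. The difference was not tested in either case, because the sets were normalized separately and the fasting time of the mutant set is not given. Within the mutant set, the test against N2 gave -1.08 ± 0.44 for ges-1 in jun-1 worms (limma adjusted p = 0.943) and -0.19 ± 0.28 for eps-8 in daf-16 worms (1).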

How the results depend on the processing

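Of 189 differences (9 members in 21 comparisons), 41 were called, and 21 of these stayed called in all alternatives apart from other probe sets. With each array left out in turn, 24 stayed called. Offsets of 0 and 1 ended no call. The 1 reversal concerned a dimmer ifc-2 probe set, called at -0.47 between fed worms at 48 and 0 h, where the brightest gave 0.07 and was not called. Of 2171 values called in neither setting, 144 changed sign. Fitting all 46 arrays together, which lets both sets share 1 spread, left 0 members called at 3 h (of 1), 1 at 6 h (of 2), 3 at 18 h (of 5), 1 at 36 h (of 6), 1 at 48 h (of 4) and 0 at the step from 12 to 18 h (of 1). It called 3 in N2 of the mutant set (of 1), 1 in kgb-1 worms (of 0), 2 in fed kgb-1 (of 1), 2 in fed jun-1 (of 0) and 1 in fed daf-16 worms (of 0). Values as deposited called 0 members at 3 h, 1 in fed jun-1 and 1 in fed daf-16 worms. An offset of 50 called 1 at 6 h. The fit without the intensity trend called 2 in N2 of the mutant set, 2 in fed kgb-1 and 1 in fed jun-1 worms, and the brighter probe sets alone 1 in fed jun-1 worms. With 1 array left out, the lowest and highest counts were 0 and 0 for 3 h, 1 and 1 for 6 h, 3 and 4 for 36 h, 2 and 4 for 48 h, and 0 and 1 for the step from 12 to 18 h. In the mutant set they were 1 and 2 for N2, 0 and 1 for kgb-1, 2 and 3 for jun-1 worms, 0 and 1 for fed kgb-1 and 0 and 1 for fed daf-16 worms. A time course group then left with 1 array was taken to vary like the others. The causes of these shifts were not tested.

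The replicate block called 5 members at 9 h (of 3), 5 at 12 h (of 4), 7 at 18 h (of 5), 8 at 24 h (of 6), 7 at 36 h (of 6) and 6 at 48 h (of 4). It called 3 in N2 of the mutant set (of 1), 1 in kgb-1 worms (of 0), 2 in fed kgb-1 (of 1), 2 in fed jun-1 (of 0), 1 in fed daf-16 worms (of 0) and 2 at the step from 12 to 18 h (of 1). The block ended no call. In the time course, with 2 arrays a group from 2 independent experiments, deviations of same-numbered arrays correlated at 0.29 to 0.62, with 22 of 22 arrays closest to their own number, though no label says that a number marks an experiment. With the block, elt-2 was called there at 9, 12, 18, 24, 36 and 48 h, pept-1 also at 9 and 48 h, ifb-2 also at 18 h, and eps-8 at 24 and 36 h.

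Over all probe sets, the block raised the calls from 252 to 541 (3 h), 497 to 961 (6 h), 2176 to 3857 (9 h), 3637 to 6188 (12 h), 1148 to 3237 (the step), 1256 to 2717 (N2 of the mutant set), 226 to 444 (kgb-1), 666 to 1621 (jun-1) and 1055 to 2080 (daf-16). The fit of all arrays changed them to 79 (3 h), 167 (6 h), 738 (9 h), 1214 (12 h), 4983 of 8247 (18 h), 3984 of 7266 (24 h), 5845 of 9082 (36 h), 3659 of 6795 (48 h), 82 (the step), 1289 (jun-1), 1732 (daf-16), 399 (kgb-1) and 2132 (N2 of the mutant set). For fed worms at 24 and 48 h against 0 h, 103 and 402 calls became 303 and 1019 with the block and 25 and 79 in the fit of all arrays. Fed mutants set against fed wild type had 429 (kgb-1), 306 (jun-1) and 98 (daf-16) calls, which became 1342, 635 and 189 with the block and 929, 612 and 218 in the fit of all arrays. The interactions' 7, 40 and 25 calls became 22, 105 and 56, and 33, 106 and 63. Brighter probe sets alone gave 65, 164 and 38 calls for fed 24 h, fed jun-1 and fed daf-16 worms and 3 and 11 for the kgb-1 and daf-16 interactions, with fewer tested, and the kgb-1 interaction had 1 to 4 calls with offsets of 0 and 1 and without the trend. The number of arrays and the foot of the intensity scale limit what dim probe sets can show.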
